A study of Bos indicus with 8 samples.

Results

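The genes described are 10 genes of the actin and contractile cytoskeleton, chosen by name: ACTA2, ACTB, ACTG1, TAGLN, MYL9, TPM1, TPM2, CNN1, CFL1 and MYH9. All probes that the platform annotation gives to one of these symbols were taken, 13 of the 43794 probes on the array, and 10 of the 15229 genes with a symbol. TPM2 had 4 probes and each other gene had 1. The RNA came from bovine cumulus cells, which surround the oocyte, of complexes taken from slaughterhouse ovaries (follicles of 3 to 6 mm). FSH pools were cultured for 6 h with recombinant human FSH (0.5 µg/ml), a gonadotropin of the pituitary, and control pools were cultured without it. Both arms had the same Tyrode lactate medium with adenosine (3 mM), estradiol (1 µg/ml), pyruvic acid (0.2 mM), gentamicin and 10% fetal bovine serum, so the comparison asked how FSH alters cumulus transcripts in their presence. The labels give Bos indicus as the organism and a number per pool of 10 without its unit. There were 4 FSH pools and 4 control pools, and an FSH pool shared 2 arrays, with the Cy3 and Cy5 dyes swapped, with the control pool that bears its number.

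Actin polymerises into filaments that myosin II motors pull on, and tropomyosins and calponins lie along the filaments and tune that pull, while cofilin severs old filaments. ACTB and ACTG1 encode the cytoplasmic actins found in nearly all cells, whereas ACTA2, TAGLN, CNN1 and MYL9 are best known from smooth muscle and from other contractile cells. In cumulus cells, actin forms the core of the fine projections that cross the zona pellucida to the oocyte. FSH acts through cyclic AMP, which is known to remodel actin in granulosa-lineage cells.

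The share of probes above the negative control limit of an array (mean plus 2 SD of 153 negative control spots) lay between 68.7% and 86.3% in the FSH channel and between 68.8% and 83.9% in the channels of control pools 1, 2 and 4. Control pool 3 stood apart, with 46.2% in Cy3 and 33.8% in Cy5 and limits, in the same order, 1.78 and 2.55 times the median of the other control channels on the same slide. Of the 13 probes, 11 exceeded the limit in both channels of every array. All 13 passed the filter on dim probes through both the FSH and the control channel. Of 10 cumulus and granulosa markers, all exceeded the limit in most channels, and 7 did so in both channels of all 8 arrays. Among the 7 were FSHR, the FSH receptor gene, CYP19A1, the aromatase gene, and GJA1, the main gap junction gene of these cells. FOXL2, of the same list, exceeded the limit on 5 of 8 arrays with FSH RNA and on 5 of 8 with control RNA. Precision is limited by the small number of replicates, 4 pairs of pools, each measured on 2 arrays.

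No probe of the 10 genes passed the adjusted test between FSH and control. Values are log2 ratios of FSH over control from the authors' series matrix, averaged over the 2 dye orientations of a replicate. In the limma fit over 33202 tested probes, 0 probes passed at an adjusted p of 0.05 (0% of those tested), and 3518 (10.6%) had an unadjusted p under 0.05, 1555 lower (4.68%) and 1963 higher (5.91%) with FSH. Of the 13 probes, 2 had an unadjusted p under 0.05, both of TPM2 and both lower with FSH. The mean was below 0 for 8 of the 13 probes, against 47.8% of all tested probes, and their median was -0.082, against 0.0076 over all tested probes. All 4 replicates lay below 0 for 2 of the 13 probes (8.15% of all tested probes) and above 0 for 0 of the 13 (11.4%). FSH and control pools failed to overlap for 0 of the 13 (3.52%). When the 8 arrays entered singly with the replicate block, limma called 634 probes (1.91%) and 0 of the 13, with a lowest adjusted p of 0.053 among them. In that fit both arrays of a pool pair count, although their RNA is the same.

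None of the 13 probes passed the adjusted test in the other settings that were run. Limma called 47 probes (0.142%) with FSH in Cy5 alone, 2 (0.00602%) with FSH in Cy3 alone, 39 (0.117%) without replicate 3 and 438 (1.32%) with the replicate block and a dye term. At an unadjusted p under 0.05 the count among the 13 was 4 with FSH in Cy3 alone (16.7% of all tested probes), namely ACTG1, CFL1 and 2 of TPM2, 3 without replicate 3 (11.9%), namely CFL1 and 2 of TPM2, and 1 of TPM2 without replicate 1 (9.41%). All of these were lower with FSH. Centring each array on its median, with no loess, gave another split over all probes, with 474 (1.43%) lower and 3348 (10.1%) higher, and among the 13 with 0 lower and 2 higher, ACTG1 (0.25) and MYL9 (0.38).

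**Figure D1:**
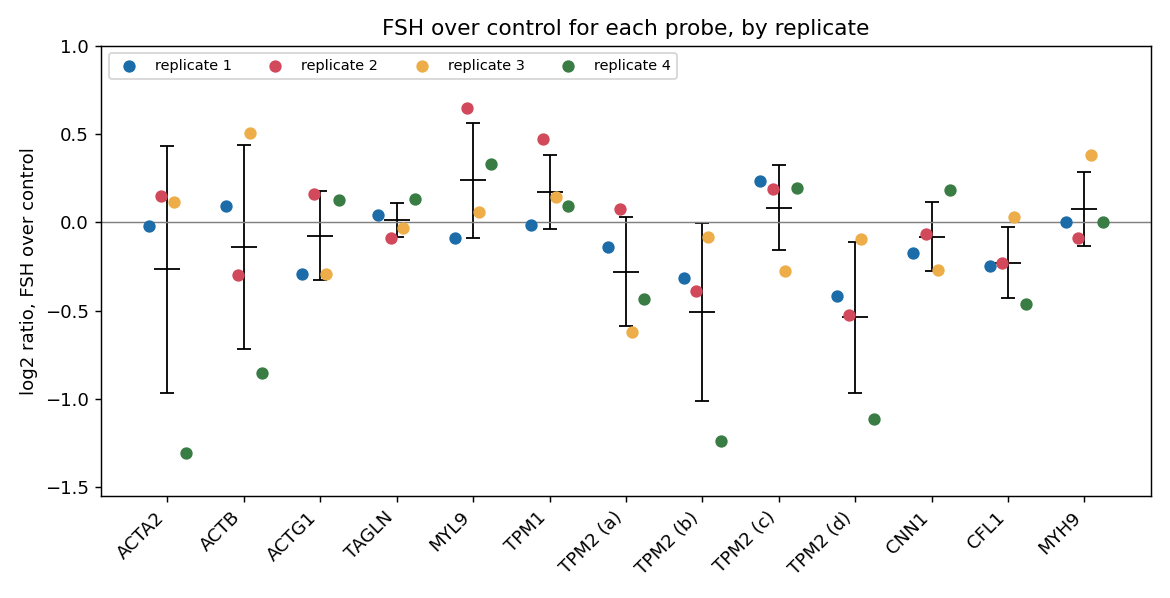
Log2 ratio of FSH over control (vertical axis) for the 13 probes of the 10 genes (horizontal axis). Coloured points are the 4 replicates, and the black bar and whiskers are their mean and SD. TPM2 probes a to d are EMBV3_09787, EMBV3_10461, EMBV3_29760 and EMBV3_32064. Replicate 4 is the lowest point for ACTA2, ACTB, TPM2 probes b and d, and CFL1.

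TPM2 encodes beta-tropomyosin, which stabilises actin filaments and sets the access of myosin to them. Probe EMBV3_32064 had log2 ratios of -0.41, -0.53, -0.094 and -1.12 in replicates 1 to 4, all below 0. Its mean was -0.54 ± 0.43 (SD, n = 4; 95% interval -0.93 to -0.15), a ratio of 0.689, with an adjusted p of 0.375 in limma. Probe EMBV3_10461 had -0.32, -0.39, -0.084 and -1.24, also below 0 throughout. Its mean was -0.51 ± 0.50 (SD, n = 4; 95% interval -0.96 to -0.060), a ratio of 0.703, with an adjusted p of 0.430 in limma. Without replicate 4 these means were -0.35 and -0.26, so the size rests in part on that replicate, and without replicate 3 they were -0.69 and -0.65.

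The other TPM2 probes did not follow this pattern. Probe EMBV3_09787 had ratios of -0.14, 0.078, -0.62 and -0.43, with a mean of -0.28 ± 0.31 (SD, n = 4) and an adjusted p of 0.507 in limma. Probe EMBV3_29760, which was dim, had 0.23, 0.19, -0.28 and 0.19, with a mean of 0.084 ± 0.24 (SD, n = 4) and an adjusted p of 0.83 in limma, and its sign turned with the scanner values (-0.031). Which transcripts of TPM2 each probe reads was not determined, as probe sequences were not used here.

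Signals of single pools were normalized from the scanner files, apart from the authors' series matrix that gave the ratios. They are log2 signals of each channel, averaged over the 2 arrays of a pool, and are compared between pools for 1 probe only. Their differences can depart from the ratios. Replicate 1 of EMBV3_10461 had -0.32 in the series matrix and -0.48 from the scanner values. Probe EMBV3_10461 had 12.99, 13.08, 12.30 and 12.15 in FSH pools 1 to 4, against 13.47, 13.47, 12.53 and 13.44 in control pools 1 to 4. Control pools 1, 2 and 4 were high and lay close together, control pool 3 lay about as low as FSH pools 3 and 4, and the groups overlapped. Probe EMBV3_32064 had 10.36, 10.43, 9.35 and 9.41 in FSH pools, against 10.76, 10.81, 9.50 and 10.46 in control pools, with the same pools low. Across the 8 pools these 2 probes had r = 0.97, which is a description, since pools of 1 number shared arrays. Probe EMBV3_09787 had 11.80, 11.91, 11.70 and 11.46 in FSH pools, against 12.02, 11.82, 12.22 and 12.02 in control pools, and there control pool 3 was the highest of all.

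ACTA2, the smooth muscle alpha-actin gene, had no difference beyond the spread of the replicates. Its log2 ratios of FSH over control were -0.019, 0.15, 0.11 and -1.31 in replicates 1 to 4, so replicates 1 to 3 lay near 0 and replicate 4 far below. The mean was -0.27 ± 0.70 (SD, n = 4; 95% interval -0.86 to 0.33), with an adjusted p of 0.750 in limma, and 0.082 without replicate 4. Pool signals of ACTA2 were 13.47, 13.65, 12.65 and 12.39 in FSH pools, against 13.71, 13.47, 12.58 and 13.68 in control pools. FSH pools 3 and 4 and control pool 3 were low by about the same amount, and FSH pool 4 was paired on its arrays with a high control pool.

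ACTB, the cytoplasmic beta-actin gene often used as a reference gene, varied in the same replicate. Its ratios were 0.093, -0.30, 0.50 and -0.85, of which 2 lay above 0 and 2 below. The mean was -0.14 ± 0.58 (SD, n = 4; 95% interval -0.64 to 0.37), with an adjusted p of 0.855 in limma, and 0.10 without replicate 4. Its pool signals were 11.71, 11.42, 11.46 and 10.88 in FSH pools, against 11.86, 11.72, 11.05 and 11.76 in control pools, and control pool 3 and FSH pool 4 were the lowest. Replicate 1 of ACTB had the other sign from the scanner values (-0.15, against 0.093 in the series matrix). The interval allows a difference of ACTB in either direction.

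ACTG1, the cytoplasmic gamma-actin gene, gave pool signals close to each other, at intensities near the highest spot means of the arrays. They were 14.84, 15.04, 14.87 and 14.91 in FSH pools, against 15.10, 14.84, 14.98 and 14.93 in control pools, with FSH and control interleaved. Each averages 2 arrays of opposite dye orientation, between which the log2 ratio from the scanner values differed by 2.15. The part of that averaging in their closeness was not tested. The ratios were -0.29, 0.16, -0.29 and 0.13, with a mean of -0.075 ± 0.25 (SD, n = 4) and an adjusted p of 0.855 in limma. Spot means of this probe were 32630 to 36626 in Cy5 and 25238 to 34501 in Cy3, and the highest spot mean of any probe on an array was 35455 to 37589 in Cy5 and 33574 to 37676 in Cy3. The probe therefore lay near the highest spot means of the arrays. The upper limit of the scanner was not taken, and how far such signals narrow its pool signals and ratios was not tested. The median pixel of its spots was 34916 to 50967 in Cy5 and 32484 to 45183 in Cy3. Actin genes are also close in sequence, so probes of ACTA2, ACTB, ACTG1 and other actins can bind more than 1 transcript.

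MYL9 and TPM1 had means above 0 that did not pass the test. MYL9 encodes a regulatory light chain of myosin II, whose phosphorylation starts contraction. Its ratios were -0.091, 0.65, 0.061 and 0.33, with a mean of 0.24 ± 0.33 (SD, n = 4; 95% interval -0.081 to 0.56) and an adjusted p of 0.577 in limma. The pool signals of MYL9 were 11.26, 11.73, 11.20 and 11.56 in FSH pools, against 11.26, 11.19, 11.21 and 11.27 in control pools. The control pools lay within a narrow band, and FSH pools 2 and 4 lay above it while FSH pools 1 and 3 lay within it. TPM1, the alpha-tropomyosin gene, had ratios of -0.016, 0.47, 0.14 and 0.091, with a mean of 0.17 ± 0.21 (SD, n = 4) and an adjusted p of 0.594 in limma. Its pool signals were 8.88, 9.21, 8.50 and 8.66 in FSH pools, against 8.90, 8.92, 8.40 and 8.77 in control pools, again with the groups overlapping. Replicate 4 of TPM1 had the other sign from the scanner values (-0.11, against 0.091 in the series matrix).

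CFL1 encodes cofilin, which severs actin filaments and speeds their turnover. Its ratios were -0.25, -0.23, 0.031 and -0.46, below 0 in 3 of 4 replicates. The mean was -0.23 ± 0.20 (SD, n = 4; 95% interval -0.47 to 0.012), with an adjusted p of 0.488 in limma. Its pool signals were 13.24, 13.23, 13.03 and 12.93 in FSH pools, against 13.56, 13.42, 12.90 and 13.33 in control pools, and control pool 3 was the lowest of all. The sign of CFL1 turned when each array was centred on its median with no loess (0.043).

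CNN1, the calponin gene of smooth muscle, had low signal. Its ratios were -0.17, -0.065, -0.27 and 0.18, with a mean of -0.082 ± 0.20 (SD, n = 4) and an adjusted p of 0.812 in limma. The pool signals of CNN1 were 7.004, 7.01, 7.09 and 7.12 in FSH pools, against 7.08, 7.08, 7.24 and 7.06 in control pools, and control pool 3 was the highest. Its spot means in control pool 3 were 243 in Cy3 and 86.3 in Cy5, against raised limits of 192 and 82.2.

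TAGLN and MYH9 gave signals at the limit. The TAGLN probe, for transgelin, an actin-binding protein of smooth muscle, had spot means of 0.993 to 1.10 times the limit in the FSH channel and 0.616 to 1.08 times in the control channel. It exceeded the limit on 7 of 8 arrays with FSH RNA and on 5 of 8 with control RNA, and its mean ratio was 0.013 ± 0.097 (SD, n = 4; adjusted p = 0.971 in limma). The MYH9 probe, for the heavy chain of non-muscle myosin IIA, had 0.960 to 1.09 times the limit in the FSH channel and 0.596 to 1.08 times in the control channel. It exceeded the limit on 7 and 6 of 8 arrays, and its mean ratio was 0.075 ± 0.21 (SD, n = 4; adjusted p = 0.837 in limma). Relative to the limit, the lowest values of both probes were those of control pool 3, where the limit was raised, and a difference at such signals was not detectable.

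**Figure D2:**
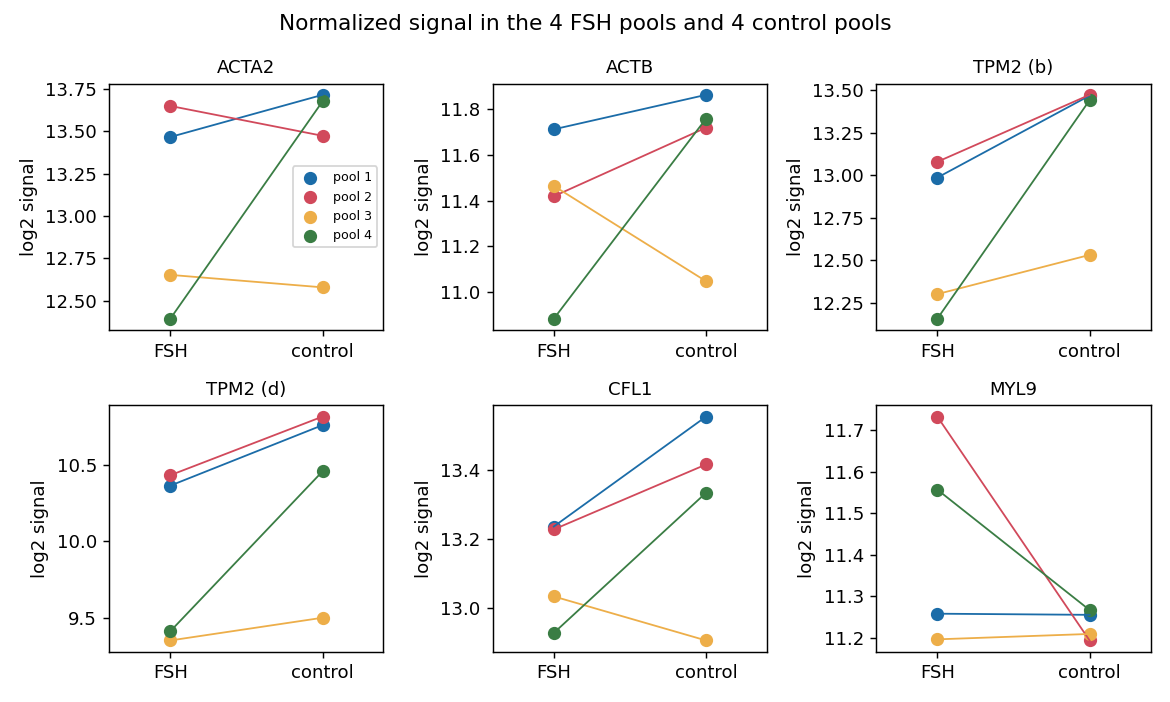
Normalized log2 signal (vertical axis) of 6 probes in FSH pools (left in each panel) and control pools (right), with the 2 pools of 1 replicate number joined by a line. For ACTA2, TPM2 probes b (EMBV3_10461) and d (EMBV3_32064) and CFL1, FSH pools 3 and 4 and control pool 3 are the 3 lowest. MYL9 control pools lie between 11.19 and 11.27.

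The same pools were low for several of these genes. FSH pools 3 and 4 and control pool 3 were the 3 lowest of the 8 pools for 5 of the 13 probes, those of ACTA2, TPM1 and CFL1 and TPM2 probes EMBV3_10461 and EMBV3_32064. This grouping of pools was noticed in the data, and it also held for 17.7% of all tested probes. Replicate 4 had the lowest ratio of the 4 for 5 of the 13 probes, those of ACTA2, ACTB and CFL1 and the same 2 TPM2 probes, against 25.6% of all tested probes. ACTA2 had r = 0.94 over the 8 pools with each of these 2 TPM2 probes, r = 0.90 with CFL1 and r = 0.86 with ACTB, but r = 0.027 with MYL9. The genes outside the 10 with the pool pattern most like ACTA2 were FARS2 (r = 0.986), CBX5 (r = 0.984) and DLG5 (r = 0.983), out of 12583 genes compared. For ACTB they were EFEMP2 (r = 0.976), JUND (r = 0.976) and LOC512286 (r = 0.975).

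Some markers of cell types were low in the same pools and others were not. FSH pools 3 and 4 and control pool 3 were the 3 lowest for 11 of 42 markers, against 17.7% of all tested probes. They were the 3 highest for 4 markers, and the share of all probes for that order was not taken. The 11 were 6 of the 10 cumulus and granulosa markers (FSHR, CYP19A1, AMH, NR5A1, HSD3B1 and CYP11A1), 2 of 7 for smooth muscle (ACTG2 and LMOD1), 2 of 8 for theca and stroma (INSL3 and COL1A1), 1 of 6 for endothelium and pericytes (MCAM) and 0 of 11 for the oocyte. The 4 were ZAR1, OOEP, PDGFRA and RGS5. Some of these orders rest on small gaps at low signal. NR5A1 had 7.01 and 6.91 in FSH pools 3 and 4 and 7.004 in control pool 3, against 7.03 in control pool 4. ZAR1 exceeded the limit on 1 of 8 arrays with FSH RNA and 5 of 8 with control RNA. Fewer cells of a type and less RNA per cell cannot be told apart in such pools. FSHR had 10.66, 10.28, 9.34 and 9.08 in FSH pools, against 10.46, 10.39, 8.88 and 10.09 in control pools, and so was low in the pools where ACTA2 was low. Over the list of 10 cumulus and granulosa markers, all with a probe, the mean log2 signal ranged from 9.31 to 10.07 in FSH pools, against 9.71 to 10.09 in control pools, lowest within each arm in FSH pool 4 and in control pool 3. Another gene of that list, GJA1, had 12.53, 11.75, 12.90 and 12.30 in FSH pools, against 12.29, 12.41, 12.52 and 12.40 in control pools, so it was not low there. MCAM, a marker of endothelium and pericytes, had 12.20, 12.17, 11.06 and 10.56 in FSH pools, against 12.24, 12.31, 11.52 and 12.28 in control pools. ACTG2, the gamma-actin gene of smooth muscle, had 10.99, 10.66, 9.81 and 9.46 in FSH pools, against 10.96, 10.74, 9.58 and 10.53 in control pools, so it was low in the same pools as ACTA2. The others of the endothelium and pericyte list did not follow MCAM: RGS5 had 6.66, 6.63, 6.76 and 6.82 in FSH pools, against 6.64, 6.60, 6.76 and 6.68 in control pools, and PECAM1, VWF, CDH5 and PDGFRB lay between 6.71 and 6.88 in all pools. PDGFRA, of the theca and stroma list, had 8.86, 8.96, 9.34 and 9.64 in FSH pools, against 9.10, 9.11, 9.55 and 9.28 in control pools. The smooth muscle marker SYNPO2 had 8.68, 8.89, 8.84 and 8.998 in FSH pools, against 8.49, 8.52, 9.40 and 8.28 in control pools, and so was highest in control pool 3.

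DES, the muscle intermediate filament gene, split the pools by number and not by treatment. Its signals were 7.45, 7.03, 8.85 and 9.01 in FSH pools, against 7.40, 7.09, 9.45 and 8.94 in control pools, so that pools 3 and 4 were high in both arms. Over the 7 smooth muscle markers, of which 6 exceeded the limit in most channels, the mean log2 signal ranged from 7.94 to 8.06 in FSH pools, against 7.90 to 8.09 in control pools. The smooth muscle myosin gene MYH11 exceeded the limit on all arrays, and LMOD1 did so on 3 of 8 with FSH RNA and 2 of 8 with control RNA. Of the 8 theca and stroma markers, 7 exceeded the limit in most channels, with a mean signal of 7.62 to 7.72 in FSH pools, against 7.57 to 7.77 in control pools. Of the 6 markers of endothelium and pericytes, 4 did so, with a mean signal of 7.43 to 7.68 in FSH pools, against 7.58 to 7.68 in control pools, and PECAM1 exceeded the limit on 2 of 8 arrays with FSH RNA and 0 of 8 with control RNA. The 11 oocyte markers, 8 of them above the limit in most channels, had a mean signal of 6.83 to 6.95 in FSH pools, against 6.89, 6.90, 7.61 and 7.18 in control pools 1 to 4. Among them BTG4 had 9.31 and 8.19 in control pools 3 and 4, against 6.77 to 7.13 in FSH pools. ZP2, ZP4, DPPA3 and FIGLA were also high in both control pools, and ZAR1 in control pool 3 only. GDF9, BMP15, ZP3, OOEP and NLRP5 stayed between 6.65 and 7.18 in all pools. Within that band GDF9 had 6.65 to 6.82 in FSH pools, against 6.92 to 6.93 in control pools. Such pools without overlap were found for 3.52% of all tested probes. GDF9 exceeded the limit on 3 of 8 arrays with FSH RNA and 6 of 8 with control RNA. The part of these markers in the values of the actin genes was not tested.

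**Figure D3:**
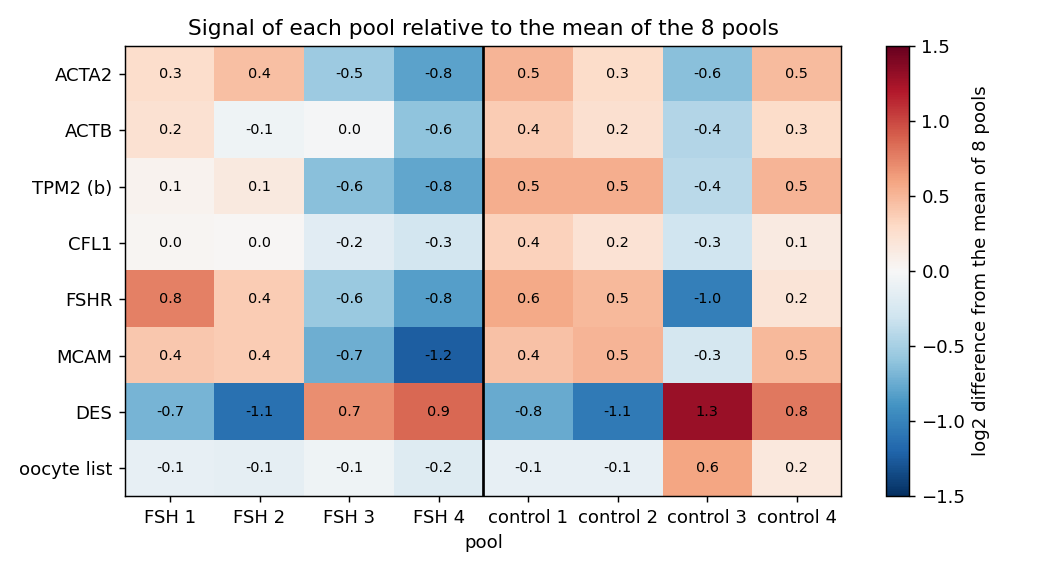
Log2 signal of each pool (columns, FSH pools left and control pools right) minus the mean of the 8 pools, for 4 probes of the actin genes, 3 marker genes and the mean of the 11 oocyte markers (rows). TPM2 (b) is probe EMBV3_10461. ACTA2, TPM2 and FSHR are low in FSH pools 3 and 4 and in control pool 3, and DES is high in pools 3 and 4 of both arms.

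All arrays with FSH in Cy5 lay on 1 slide and all with FSH in Cy3 on the other, so slide and dye cannot be told apart. The difference between orientations was tested per replicate, FSH in Cy5 minus FSH in Cy3, and passed for 1 of the 13 probes (9.29% of all tested probes). This was ACTG1, at 0.23 on the Cy5 slide of FSH and -0.38 on the other, a difference of 0.61 (adjusted p = 0.0185 in limma). Its signals lay near the highest spot means of the arrays, so that size is uncertain. The difference did not pass for CFL1, which stood at -0.0059 and -0.45 in that order (difference 0.45, adjusted p = 0.0701 in limma). Nor did it for TAGLN, which stood at -0.16 and 0.18 (difference -0.34, adjusted p = 0.0776 in limma). Means had opposite signs on the slides for 5 of the 13 probes, against 46.3% of all tested probes. ACTA2, at -0.37 and -0.17, and TPM2 probe EMBV3_32064, at -0.47 and -0.61, kept their sign on both slides. From the scanner values with loess, 7 of the 13 probes passed that test, against 40.5% of all tested probes. ACTG1 differed there by 2.15, CFL1 by 0.53 (adjusted p = 0.00041), and TPM2 probes EMBV3_09787, EMBV3_10461 and EMBV3_32064 by -0.22, 0.21 and 0.13 (adjusted p = 0.0030, 0.0186 and 0.0083 in limma). CNN1 differed there by 0.12 (adjusted p = 0.0322) and TAGLN by -0.11 (adjusted p = 0.0197 in limma).

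**Figure D4:**
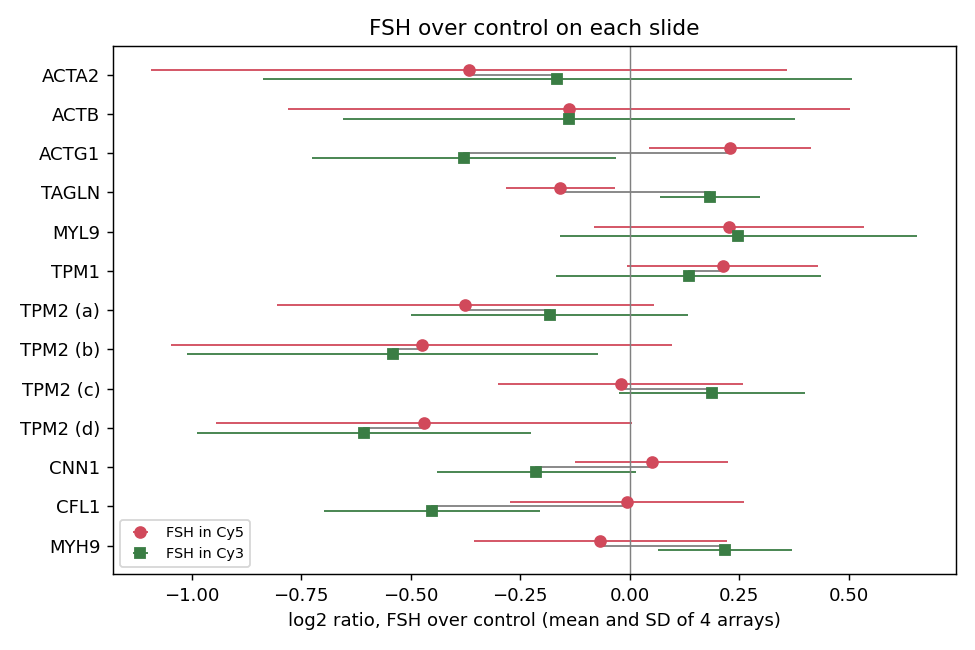
Log2 ratio of FSH over control (horizontal axis) for each probe (rows) for FSH in Cy5 (circles) and for FSH in Cy3 (squares), as the mean and SD of 4 arrays. ACTG1 lies at 0.23 and -0.38 and CFL1 at -0.0059 and -0.45, whereas ACTB lies at -0.14 on both.

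Other genes of the actin cytoskeleton, taken from lists by role, had 0 calls at the adjusted threshold in limma. Of 70 listed genes 63 had a probe and 57 were tested, each by its probe of highest mean intensity. The mean was below 0 for 34 of the 57 and above 0 for 23, against 47.8% of all tested probes below 0. At an unadjusted p under 0.05 there were 3 lower (TPM3, ACTR3 and EZR) and 2 higher (MYH11 and TMSB4X), against 10.6% of all tested probes. Their median was -0.020, against 0.0076 over all tested probes.

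Among the other actins, ACTG2 stood at -0.32 ± 0.74 (SD, n = 4) and the skeletal muscle actin gene ACTA1 at 0.095 ± 0.76. Of the 8 tested genes of myosin and its regulation, 3 had a mean below 0 and 5 above. PPP1R12A, which targets the phosphatase of myosin light chains, stood at -0.15 ± 0.18, the light chain gene MYL12A at 0.31 ± 0.58 and MYH11 at 0.31 ± 0.31 (SD, n = 4 each). Of the 7 relatives of tropomyosin, calponin and transgelin, 6 had a mean below 0 (47.8% of all tested probes), with a median of -0.12. All 4 replicates lay below 0 for 3 of them (8.15% of all tested probes), TPM3, TPM4 and SMTN. The other tested probes of TPM4 stood at 0.015 and 0.029, and SMTN stood at -0.12, against 0.00014 from the scanner values. TPM3, another tropomyosin gene, had ratios of -0.24, -0.18, -0.40 and -1.42, with a mean of -0.56 ± 0.58 (SD, n = 4; adjusted p = 0.437 in limma), and was lowest in replicate 4, as 2 of the TPM2 probes were. CALD1, which encodes caldesmon, stood at 0.14 ± 0.25 (SD, n = 4).

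Genes of filament turnover lay on both sides of 0, with 8 of 14 below and a median of -0.0044. LIMK1, the kinase that inactivates cofilin, stood at -0.34 ± 0.47 (SD, n = 4). TMSB4X, which encodes the monomer-binding thymosin beta-4, had ratios of 0.32, 0.13, 1.34 and 0.33, all above 0, with a mean of 0.53 ± 0.55 (SD, n = 4; adjusted p = 0.437 in limma). Of the 11 genes of branching and nucleation 5 lay below 0. ACTR3, a subunit of the Arp2/3 complex that branches filaments, had -0.33, -0.46, -0.16 and -0.55, with a mean of -0.38 ± 0.17 (SD, n = 4; adjusted p = 0.333 in limma). ARPC3, another subunit of that complex, stood at 0.21 ± 0.35 (SD, n = 4).

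Of the 11 genes of crosslinking and adhesion, 8 lay below 0 (47.8% of all tested probes), and the list median was -0.14. EZR encodes ezrin, which ties filaments to the membrane. It stood at -0.73 ± 0.84 (SD, n = 4; adjusted p = 0.459 in limma), with replicate 3 at 0.48 and its other tested probe at -0.12, and the zyxin gene ZYX stood at 0.086 ± 0.19. Of the serum response factor axis, whose targets include actin genes, 3 genes were tested, with FHL2 at -0.30 ± 0.41 and SRF itself at 0.22 ± 0.25 (SD, n = 4 each). The difference between dye orientations passed for 4 of the 57 genes, 7.02% against 9.29% of all tested probes. They were SRF (-0.086 with FSH in Cy5, 0.52 with FSH in Cy3, adjusted p = 0.0141 in limma), CNN2 (0.29 and -0.33, adjusted p = 0.0330), LIMK1 (-0.56 and -0.12, adjusted p = 0.0351) and PFN1 (0.21 and -0.18, adjusted p = 0.0466).

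**Figure D5:**
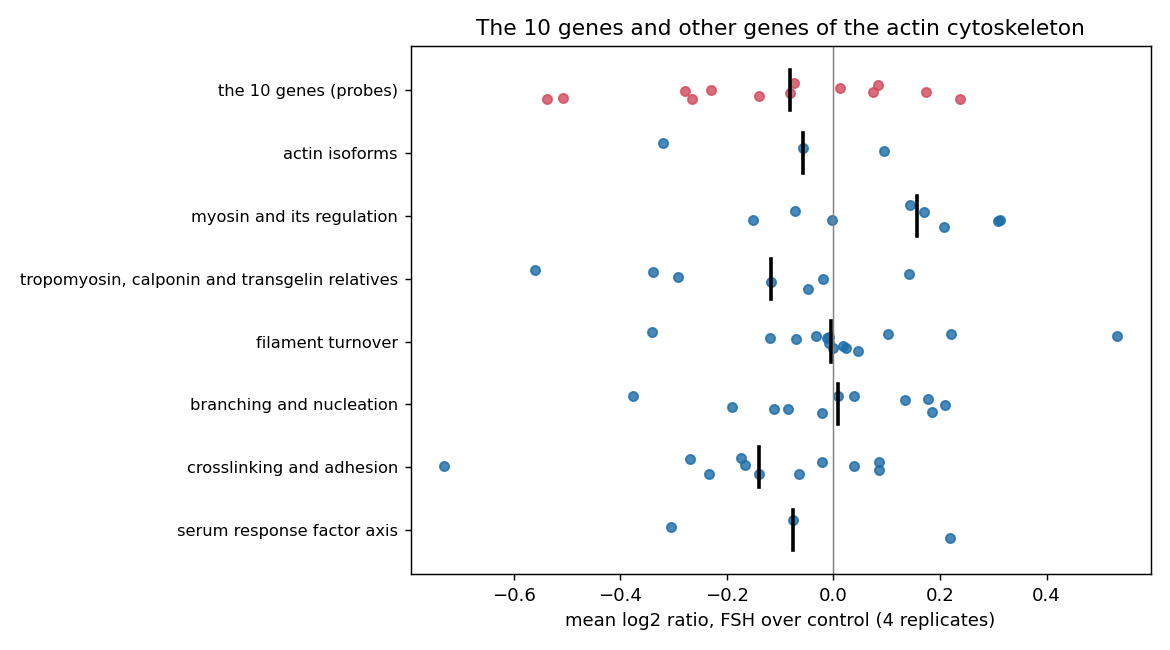
Mean log2 ratio of FSH over control (horizontal axis) of the 13 probes of the 10 genes (top row) and of 57 other genes of the actin cytoskeleton by list (rows below). Points are probes or genes, spread vertically at random for legibility, and black bars are medians. EZR at -0.73 and TMSB4X at 0.53 are the lowest and the highest of the other genes.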

How the data were processed

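Per the labels' protocols, total RNA of cumulus cells underwent T7 linear amplification, and the dyes (Cy3, Cy5) were attached chemically. The deposited scanner files give spot intensity and local background per channel on a linear scale, for 45220 spots per array. The deposited series matrix holds the authors' normalized log2 ratios of FSH over control, with column medians from -0.0038 to 0.018. It equals the authors' table of Cy5 over Cy3 after turning, within 5.0e-06. Direction was settled against the scanner values (r from 0.459 to 0.776 across probes), and the authors' background correction and normalization are not given in the sources used here.

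The 2 arrays of a replicate were averaged, and the 4 values were tested with limma 3.58.1 (intercept, eBayes; R 4.3.3, statmod 1.5.0), with Benjamini-Hochberg adjustment over all tested probes at 0.05. Probes were tested if their signal exceeded the negative control limit in either channel for 3 or more of 4 replicates, 33202 of 43794. Pool signals came from spot means after normexp (offset 50), loess with control spots at weight 0, and quantile normalization of average intensities. Symbols are those of the platform's annotation and may be outdated (1 symbol for 21790 probes, none for 22004), and all 10 symbols were found in a RefSeq gene table. The p-values measure the spread of the 4 replicate ratios of FSH over control, moderated by eBayes. A shift shared by both pools of a replicate cancels in its ratio. The labels call the replicates biological without naming animals, so how far the p-values cover the spread between animals is not known.

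Same-numbered pools deviated together from their group means (r = 0.70, 0.69, 0.63 and 0.12 over probes), although for FSH pool 4 the closest was control pool 3 (r = 0.74). Pools 1 and 2 were also alike across numbers. FSH pool 1 had r = 0.65 with control pool 2, and FSH pool 2 had r = 0.60 with control pool 1. Pools of 1 number share arrays, so they were treated as paired. Genes were named by rule: all 10 genes, and from each further list the genes with the lowest and highest mean and those with an unadjusted p under 0.05. Markers and single pools were picked out after their values were seen. The genes and lists were chosen with earlier results of these data known. The fit was tested on simulated data. It recovered 17.1% of log2 changes of 0.5, 67.2% of changes of 1 and 92.4% of changes of 2, with 7 false calls among 33202 probes. Those shares hold for the simulated data and need not hold for these pools. Other background corrections, normalizations, filters, single slides, the replicate block and each replicate left out were tried. One further gene list is not reported here.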

Additional observations from a re-analysis of the deposited data

Results flagged for a closer look

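Within groups of 4 values, a value whose gap to its neighbour is large for the range of the group was marked, which chance does for about 1 in 20 groups. Of 39 groups (replicate ratios, FSH pools and control pools of 13 probes), 4 were marked. ACTA2 had a log2 ratio of -1.31 in replicate 4, far below its other replicates. Control pool 3 had a signal of 12.53 for TPM2 probe EMBV3_10461, below the other control pools, and of 7.24 for CNN1, above the other control pools. CNN1 had low signal, and in Cy5 it lay close to the raised limit of control pool 3 (86.3 against 82.2). TPM2 probe EMBV3_29760 had a ratio of -0.28 in replicate 3, where its other replicates lay above 0.

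Orientation of the dyes gave 2 further results. ACTG1 differed by 0.61 between FSH in Cy5 and FSH in Cy3 (adjusted p = 0.0185 in limma). Its signals lay near the highest spot means of the arrays, so that size is uncertain. For TAGLN every array with FSH in Cy5 lay below 0 and every array with FSH in Cy3 above, a difference of -0.34 that did not pass on the series matrix (adjusted p = 0.0776 in limma) and passed on the scanner values (-0.11, adjusted p = 0.0197).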

How the results depend on the processing

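Over 13 alternatives (12 for TAGLN and MYH9, which the stricter filter removed), 0 probes of the 10 genes passed an adjusted p of 0.05. TPM2 probes EMBV3_32064 (-0.69 to -0.35), EMBV3_10461 (-0.65 to -0.26) and EMBV3_09787 (-0.40 to -0.10) stayed below 0, and MYL9 (0.10 to 0.38) and TPM1 (0.059 to 0.24) above 0. Signs turned for the others in 1 to 4 alternatives each, and the cause was not tested. With FSH in Cy5 only, ACTG1 stood at 0.23, TAGLN at -0.16, TPM2 probe EMBV3_29760 at -0.021, CNN1 at 0.050 and MYH9 at -0.067. With median centring and no loess, ACTG1 stood at 0.25, EMBV3_29760 at -0.017, CFL1 at 0.043 and MYH9 at -0.0040. EMBV3_29760 stood at -0.031 with normexp and loess and at -0.029 without background correction. With each replicate left out in turn, means ranged from -0.40 to 0.082 for ACTA2, from -0.35 to 0.10 for ACTB, from -0.027 to 0.047 for TAGLN and from -0.028 to 0.13 for MYH9. ACTA2, ACTB and TAGLN turned without replicate 4, and MYH9 without replicate 3.

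Over all probes, limma called 0 in the main setting, 47 with FSH in Cy5 only, 2 with FSH in Cy3 only, 634 with the replicate block, 438 with the replicate block and a dye term, and 0 to 39 with a replicate left out (39 without replicate 3). The block changed no call among the 13 probes. At an unadjusted p under 0.05, 2 of the 13 were counted in the main setting, 4 with FSH in Cy3 only, and 1 to 3 with a replicate left out (1 without replicate 1). The median of the 13 was -0.082, and it was -0.017 with median centring, -0.14 with the stricter filter (over 11 probes), -0.16 with FSH in Cy3 only, and -0.087 to -0.027 with a replicate left out (-0.028 without replicate 3, -0.027 without replicate 4). The split at that unadjusted level was 474 lower to 3348 higher under median centring, against 1555 to 1963 in the main setting. Signal near the limit restricts what TAGLN and MYH9 can show.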
